A study of Mus musculus with 17 samples.

Results

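Cd34, Procr, Slamf1, Flt3, Gata2, Tal1, Runx1, Lmo2 and Gfi1b are 9 genes by which blood stem and progenitor cells are recognised or controlled, and their RNA was followed in 17 mouse samples. The members were chosen by gene symbol, and for each symbol the RefSeq transcript with the highest mean FPKM over the 17 samples was used. The 9 genes have 18 of the 32661 transcripts measured and are 9 of 23891 gene symbols. FPKM counts fragments relative to transcript length and to the size of the library, here scaled by its upper quartile, so levels of different genes can be set side by side per length.

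The study asked how cultured spermatogonial stem cells convert to multipotent cells (MASCs), and blood cells and fibroblasts were sequenced as somatic references. The 2 HSC cultures (haematopoietic stem and progenitor cells) came from C57Bl/6J bone marrow depleted of lineage-marked (Lin+) cells. They grew in serum-free X-Vivo medium with 10 ng/ml soluble Kit ligand on E4ORF1-HUVECs, human umbilical vein endothelial cells that carry an adenoviral gene, were replated every 7 days, and were depleted of Lin+ cells again before RNA was taken. The 4 SSC lines (spermatogonial stem and progenitor cells) came from Oct4-GFP (SSC 1 and 2), C57Bl/6J (SSC 3) and 129mix (SSC 4) mice and were cultured on MEF feeders. The 10 lines grouped here as pluripotent were 6 MASC lines (multipotent adult spermatogonial-derived stem cells, picked as colonies after long expansion of SSCs), of Oct4-GFP (MASC 1 and 2), 129mix (MASC 3 and 4) and Gt(ROSA26)Sor-lacZ (MASC 5 and 6) background, 2 ESC lines (Oct4-GFP and 129mix) and 2 iPS cell lines (129mix). The iPS cells were reprogrammed with 2 µg/ml doxycycline from fibroblasts of E13.5 embryos that carried the tetO-4F2A cassette and H3.3B-HA. The MEF sample was taken from E13.5 embryos of H3.3B-HA mice on the 129mix background. The pluripotent lines were also grown with MEFs, in ESC medium, so they shared the feeder but not the medium with the SSC lines. Oct4-GFP and 129mix backgrounds occur in more than 1 cell type. Between the HSC cultures and the pluripotent lines, strain, medium and feeder all differ together with cell type and cannot be told apart from it. The labels do not say whether the 2 HSC cultures came from separate mice, so the spread between them may be technical. The p-values and standard errors (SE) below rest on 1 spread pooled over all 6 cell types. The larger groups set most of it, so it can understate the spread between the 2 HSC cultures.

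In the adult bone marrow, blood stem cells are told from their progeny by sets of surface proteins. CD34 is a sialomucin of progenitors and also of endothelium, the receptor encoded by Procr binds protein C, the receptor encoded by Slamf1 (CD150) is a signalling lymphocyte activation molecule used to isolate the most primitive cells, and Flt3 is a receptor tyrosine kinase of multipotent and lymphoid-primed progenitors. GATA2, TAL1, RUNX1, LMO2 and GFI1B are transcription factors or cofactors. LMO2 bridges TAL1 with its E-protein partners and a GATA factor on DNA, RUNX1 works with CBFβ, and GFI1B represses genes through LSD1 and CoREST. Several of these genes stay on in mast cells, megakaryocytes and erythroid cells, so none of them alone marks a stem cell.

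The label of the HSC cultures was set against marker genes first. All 7 haematopoietic markers (Ptprc, Cd53, Laptm5, Coro1a, Was, Vav1, Rac2) were called higher in the HSC cultures than in the pluripotent lines. The transcripts with the highest FPKM in both cultures were mast cell proteases: Tpsb2 had 25048 FPKM in HSC 1 and 11721 in HSC 2, and Mcpt4 had 12789 and 12793. The 10 mast cell markers summed to 63692 FPKM in HSC 1 and 39324 in HSC 2, against 0.768 to 55.4 in the other 15 samples. Neutrophil and granule markers (8 genes, led by Mpo, Prtn3, Ctsg and Elane) summed to 2957 and 2278 FPKM. Of these 8, 3 were not called against the pluripotent lines, and 7 reached 1 FPKM in HSC 1 and 5 in HSC 2. Megakaryocyte markers (6 genes) summed to 436 and 782 FPKM, of which Itga2b held 338 and 232. The most abundant RNAs of these Lin- cultures were thus those of genes known for maturing mast cells and granulocyte precursors, and the label HSC is used below as the name of the samples. In bulk RNA, fewer cells of a type and less RNA per cell cannot be told apart.

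The 2 HSC cultures also differed in markers of other cells. The 8 fibroblast markers summed to 2.52 FPKM in HSC 1, with Dcn near 0, and to 357 in HSC 2, led by Col1a2 and Dcn. Of the 6 endothelial markers, 1 reached 1 FPKM in HSC 1 and 5 in HSC 2, although the sums were alike at 42.5 and 39.9. The MEF sample had 3900 FPKM of the 7 macrophage markers (Lyz2, C1qa, Cd68, Cd14, Csf1r, Emr1, Mrc1), against 275 and 288 in the HSC cultures and 5.51 to 238 in the other lines, beside 6340 FPKM of fibroblast markers. The number of reads is not in the files used here. The coverage listed beside each FPKM amounted to 1.26 to 3.23 reads per base at 1 FPKM, lowest in HSC 2, and HSC 1 had the fewest transcripts at 1 FPKM or more (13532, with up to 16272 elsewhere).

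**Figure D1:**
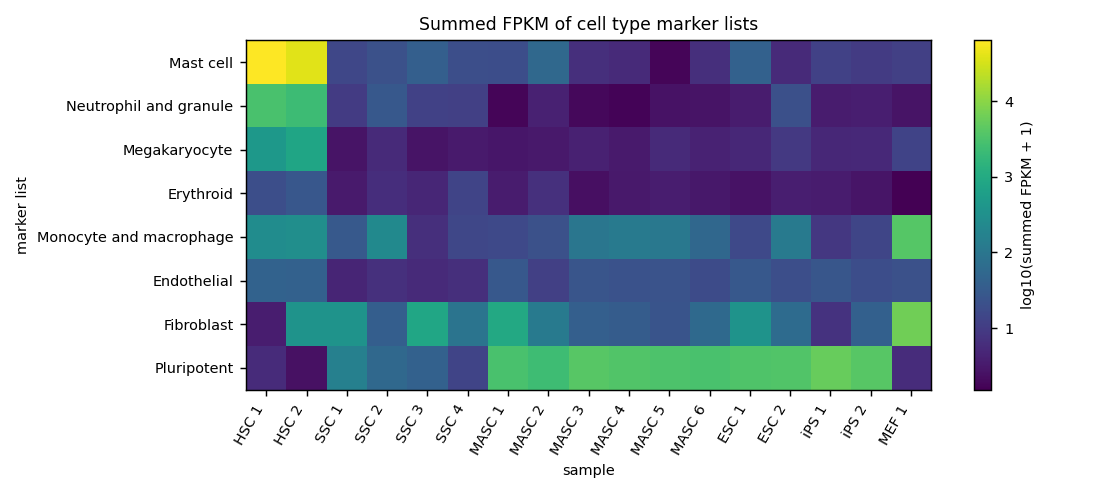
Summed FPKM of 8 marker lists (rows) in the 17 samples (columns), as log10(summed FPKM + 1) on a colour scale. The sums of mast cell, neutrophil and megakaryocyte markers were high in both HSC cultures, though 3 of the 8 neutrophil and granule markers were not called against the pluripotent lines. Fibroblast markers separated HSC 2 (357 FPKM) from HSC 1 (2.52 FPKM), and macrophage markers were highest in the MEF sample (3900 FPKM).

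The starts of Runx1 and Tal1 are shown here, because their transcripts begin at separate starts whose shares in the 2 HSC cultures and the MEF sample are given after the levels, and that of Gfi1b as a gene with 1 start and a GATA word. Each sequence is the RefSeq promoter (table of build GRCm38.p6), 250 bases before to 50 after the start, 5′ to 3′ on the gene's strand. Promoters were found for 8 of the 9 genes (not for Lmo2), 11 in all, and each matched 1 place in mm9, the build of the files. Capitals mark a GATA word (the letters GATA with A or T before them and A or G after them) or a Runx word (TGTGGT), on either strand. The first pair are the distal (chr16:92826270-92826569) and proximal (chr16:92697525-92697824) starts of Runx1, the second pair the upstream (chr4:114728781-114729080) and downstream (chr4:114730166-114730465) starts of Tal1, and the last is Gfi1b (chr2:28477453-28477752), which had at most 0.172 FPKM outside the HSC cultures.
Runx1, distal start, minus strand: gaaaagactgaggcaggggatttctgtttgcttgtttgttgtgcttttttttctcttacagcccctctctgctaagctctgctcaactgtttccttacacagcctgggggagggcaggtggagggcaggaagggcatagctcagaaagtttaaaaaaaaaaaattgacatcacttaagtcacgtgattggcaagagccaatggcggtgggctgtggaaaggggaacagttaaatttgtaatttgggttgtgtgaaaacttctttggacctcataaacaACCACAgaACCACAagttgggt
Runx1, proximal start, minus strand: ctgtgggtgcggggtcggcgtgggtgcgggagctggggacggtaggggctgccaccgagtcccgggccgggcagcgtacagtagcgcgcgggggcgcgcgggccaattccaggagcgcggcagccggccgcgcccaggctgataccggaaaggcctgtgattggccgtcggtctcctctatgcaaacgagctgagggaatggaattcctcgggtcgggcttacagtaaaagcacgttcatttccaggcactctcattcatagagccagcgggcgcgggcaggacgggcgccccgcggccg
Tal1, upstream start, plus strand: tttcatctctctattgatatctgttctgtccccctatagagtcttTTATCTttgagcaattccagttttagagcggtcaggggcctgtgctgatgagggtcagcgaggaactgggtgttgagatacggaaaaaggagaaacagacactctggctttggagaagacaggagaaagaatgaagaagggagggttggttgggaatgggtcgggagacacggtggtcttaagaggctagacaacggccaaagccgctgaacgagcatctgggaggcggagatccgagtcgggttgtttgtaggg
Tal1, downstream start, plus strand: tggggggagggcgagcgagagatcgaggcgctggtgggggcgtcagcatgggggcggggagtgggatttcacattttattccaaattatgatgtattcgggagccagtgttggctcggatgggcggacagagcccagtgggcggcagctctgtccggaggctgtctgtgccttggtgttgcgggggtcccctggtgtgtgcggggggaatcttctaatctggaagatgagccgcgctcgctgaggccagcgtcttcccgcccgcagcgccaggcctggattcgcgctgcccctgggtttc
Gfi1b, minus strand: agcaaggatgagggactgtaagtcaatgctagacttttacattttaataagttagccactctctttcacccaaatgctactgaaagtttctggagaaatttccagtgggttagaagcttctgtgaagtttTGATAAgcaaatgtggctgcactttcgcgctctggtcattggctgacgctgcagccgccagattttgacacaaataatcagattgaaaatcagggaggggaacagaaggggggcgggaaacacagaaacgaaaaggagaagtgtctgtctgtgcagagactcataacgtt

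The distal Runx1 window held 2 Runx words, 28 and 36 bases after the start, both read on the other strand, and the proximal window held none. The upstream Tal1 window held a GATA word 205 bases before its start, the downstream window none, and the Gfi1b window a GATA word 120 bases before its start. Over the 11 promoters of the members, 4 held a GATA word (Cd34, Slamf1, upstream Tal1 and Gfi1b), against 29.6% of all 32544 distinct promoters in the table. A Runx word was in 1 of the 11, against 16.7% of all, and an E-box (CANNTG, the kind of site TAL1 binds with its partners) in 7 of the 11, against 72.3%. Such matches are letters in a window, not binding sites.

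Among the 9 genes, 6 had a higher FPKM in both HSC cultures than in each of the 15 other samples (Cd34, Slamf1, Gata2, Tal1, Lmo2 and Gfi1b), as had 8.04% of all transcripts. This is on the chosen transcripts, and with its transcripts summed Runx1 also lay above all other samples. The levels ran from 495 FPKM (Gata2 in HSC 1) to 0.148 (Slamf1 in HSC 1): Gata2 and Cd34 were the highest members, Tal1, Lmo2, Runx1 and Gfi1b were between them and the rest, and Procr, Flt3 and Slamf1 stayed under 5 FPKM in both cultures. In limma's moderated test on log2(FPKM + 1), with p-values adjusted over all 32661 transcripts by the method of Benjamini and Hochberg, a transcript was called at an adjusted p under 0.05 and a log2 difference of at least 2. Against the 10 pluripotent lines, 6 members were called higher in the HSC cultures and none lower, where 4.44% of all transcripts were called higher and 3.81% lower. The median log2 difference of the 9 members was 3.57, and that of all transcripts 0.00 (-0.0043). Against the 4 SSC lines the same 6 were called higher and none lower (4.12% and 5.08% of all transcripts). Against the MEF sample 4 were called higher and none lower (2.35% and 2.72%).

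**Figure D2:**
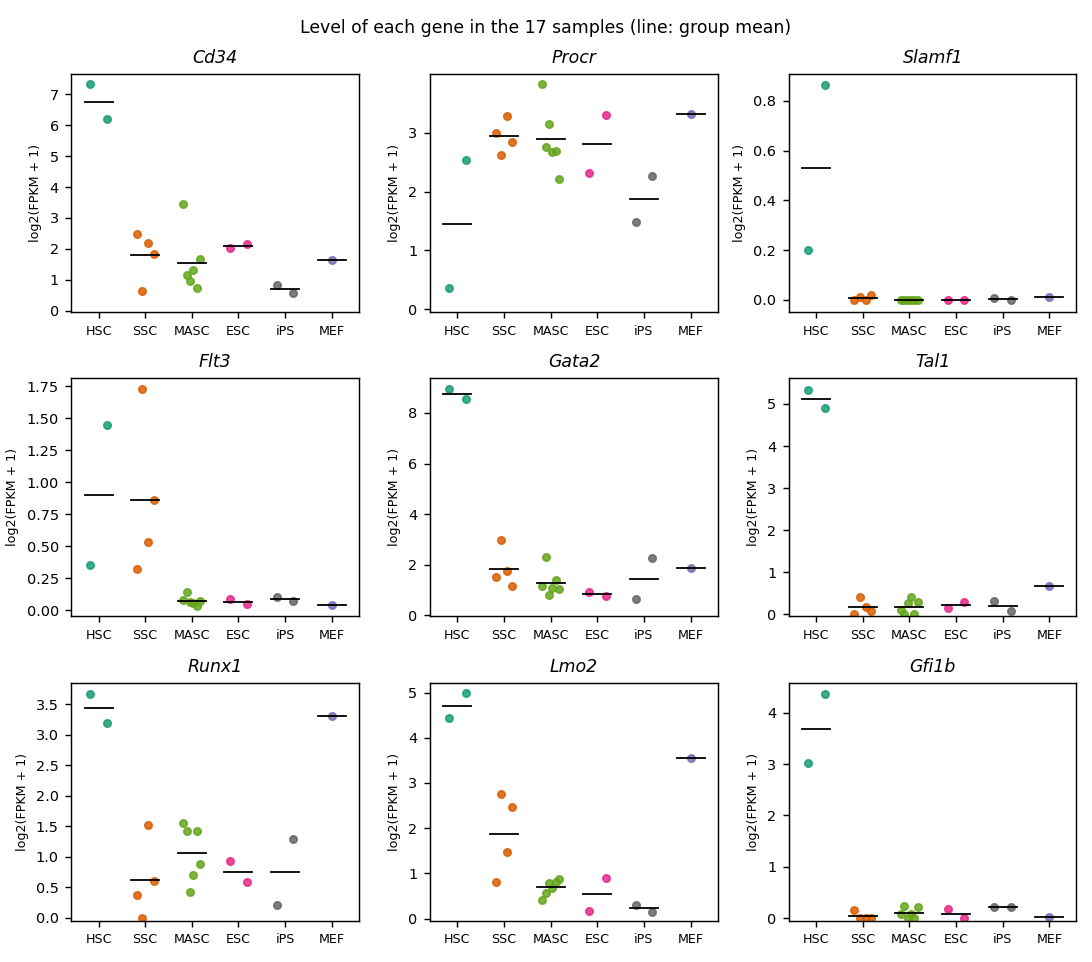
Level of each of the 9 genes as log2(FPKM + 1), with 1 point per sample and a line at the mean of each cell type (HSC n = 2, SSC n = 4, MASC n = 6, ESC n = 2, iPS n = 2, MEF n = 1); each panel has its own vertical scale. Cd34, Gata2, Tal1 and Gfi1b stand far above all other samples in both HSC cultures, Runx1 and Lmo2 are also high in the MEF sample, and Procr is lowest in HSC 1.

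Of the receptors and surface proteins, Cd34 (NM_133654, mm9 chr1:196765015-196787486) had 159 FPKM in HSC 1 and 72.8 in HSC 2. The 4 SSC lines had 4.62, 0.555, 3.57 and 2.58 FPKM. The pluripotent lines had 0.488 at the lowest, 1.36 at the median and 10.0 at the highest, and MEF had 2.13. Both HSC cultures lay above every other sample, and the highest of the others was MASC 1, which also had the most fibroblast marker RNA of the pluripotent lines (943 FPKM summed); the part of that RNA in its Cd34 value was not tested. The log2 difference was 5.28 ± 0.63 (SE) from the pluripotent lines (adjusted p = 4.21e-05), 4.97 ± 0.70 from the SSC lines (adjusted p = 0.000163) and 5.12 ± 0.99 from MEF (adjusted p = 0.00477). Below HSC, the order was ESC, SSC, MEF, MASC and iPS, and each neighbouring pair overlapped. The second annotated transcript of Cd34 (NM_001111059), from the same start, had 114 and 52.8 FPKM in the HSC cultures, so both forms were in the cultures.

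Procr (NM_011171, chr2:155576953-155581214) went against the other members. It had 0.282 FPKM in HSC 1 and 4.79 in HSC 2, while the SSC lines had 6.99, 5.16, 8.80 and 6.15, the pluripotent lines 1.81 to 13.2 with a median of 5.42, and MEF 9.02. HSC 1 was the lowest of the 17 samples, and HSC 2 lay within the range of the pluripotent lines but below all SSC lines. The log2 difference from the pluripotent lines was -1.22 ± 0.50 (adjusted p = 0.0840) and from the SSC lines -1.49 ± 0.56 (adjusted p = 0.0612), neither called; with a pseudocount of 0.1 the latter was -2.31 and called (adjusted p = 0.0442). The value rested on which culture was used. Without HSC 2, Procr was called lower than in the pluripotent lines (log2 difference -2.31, adjusted p = 0.00642), the SSC lines (-2.58, adjusted p = 0.00451) and MEF (-2.97, adjusted p = 0.0144), and without HSC 1 the same differences were -0.14, -0.41 and -0.79 and not called. These fits leave 1 HSC sample (against MEF, 1 sample on each side), which is assumed to vary like the other cell types. HSC 2 is also the culture with the fibroblast marker RNA (357 FPKM, against 2.52 in HSC 1), whose part in the Procr level was not tested. By the mean of each cell type MEF was highest, and SSC, MASC and ESC could not be separated by their ranges.

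Slamf1 (NM_013730, chr1:173697263-173731315) had 0.148 FPKM in HSC 1 and 0.821 in HSC 2. It was listed at 0 in 10 of the other 15 samples and reached 0.0143 at most, in SSC 4. Both cultures were above all others, but the level was low: the coverage of the transcript was 0.237 reads per base in HSC 1 and 1.07 in HSC 2. The log2 difference from the pluripotent lines was 0.53 ± 0.11 (adjusted p = 0.00221), which passed the test and not the size required for a call, and it was 0.20 without HSC 2 and 0.86 without HSC 1. With a pseudocount of 0.1 in place of 1 it was 2.25 and was called. Slamf1 was the member that did not reach 1 FPKM in 2 samples, and the other 8 did.

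Flt3 (NM_010229, chr5:148142317-148212065) had 0.274 FPKM in HSC 1 and 1.72 in HSC 2. The SSC lines had 0.252, 2.31, 0.444 and 0.818 FPKM, the pluripotent lines 0.0228 to 0.104 with a median of 0.0498, and MEF 0.0261. The HSC cultures lay above all pluripotent lines and within the range of the SSC lines. The log2 difference was 0.82 ± 0.30 from the pluripotent lines (adjusted p = 0.0543) and 0.04 ± 0.34 from the SSC lines. The former was 0.28 without HSC 2 (adjusted p = 0.723) and 1.37 without HSC 1 (adjusted p = 0.0121). Without HSC 2 the latter turned to -0.51, and with a pseudocount of 0.1 the former was 2.45 and called (adjusted p = 0.00744). Every SSC line had more Flt3 than every MASC line, with a log2 difference (MASC minus SSC) of -0.79 ± 0.25 and an adjusted p of 0.0313, under the size required for a call.

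Of the transcription factors, Gata2 (NM_008090, chr6:88148658-88157026), which maintains blood stem cells and is also needed for mast cells, was the highest member, with 495 FPKM in HSC 1 and 375 in HSC 2. In both cultures over 99% of transcripts had a lower FPKM (99.4% in each). The SSC lines had 1.86, 6.85, 2.33 and 1.20 FPKM, the pluripotent lines 0.569 to 3.89 with a median of 1.06, and MEF 2.67. No sample came near the cultures. The log2 difference was 7.53 ± 0.49 from the pluripotent lines (adjusted p = 2.55e-07), 6.91 ± 0.55 from the SSC lines (adjusted p = 1.54e-06) and 6.88 ± 0.78 from MEF (adjusted p = 9.01e-05). The 5 other cell types followed as MEF, SSC, iPS, MASC and ESC, each overlapping the next.

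Tal1 (NM_011527, chr4:114729031-114744360), the basic helix-loop-helix factor without which no blood forms, had 39.5 and 28.9 FPKM in the HSC cultures. The SSC lines had 0.00228, 0.327, 0.132 and 0.0633 FPKM, the pluripotent lines at most 0.334, and MEF 0.594. The log2 difference from the pluripotent lines was 4.93 ± 0.14 (adjusted p = 8.31e-11), from the SSC lines 4.95 ± 0.15 and from MEF 4.45 ± 0.22, all called. Gfi1b (NM_008114, chr2:28464970-28477502), a transcriptional repressor needed for erythroid and megakaryocyte development, had 7.08 FPKM in HSC 1 and 19.7 in HSC 2, and at most 0.172 FPKM in any other sample. Its log2 difference was 3.57 ± 0.23 from the pluripotent lines (adjusted p = 2.11e-07), 3.65 ± 0.25 from the SSC lines and 3.67 ± 0.36 from MEF.

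Runx1 and Lmo2 were called against the stem cell lines and not against fibroblasts. Runx1 (NM_001111023, chr16:92601711-92697574), needed for blood stem cells to arise from endothelium, had 11.8 and 8.18 FPKM in the HSC cultures and 8.94 in MEF. The SSC lines had 0.289, near 0, 1.87 and 0.513 FPKM, and the pluripotent lines 0.160 to 1.94 with a median of 0.871. On this transcript MEF lay between the cultures, and all other samples lay below them. Summed over the Runx1 transcripts, the cultures had 26.3 and 23.7 FPKM and lay above MEF (13.6) and all other samples. The log2 difference was 2.49 ± 0.40 from the pluripotent lines (adjusted p = 0.000436), 2.82 ± 0.45 from the SSC lines (adjusted p = 0.000410) and 0.12 ± 0.63 from MEF.

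Lmo2 (NM_001142335, chr2:103810444-103822035) had 20.6 and 30.6 FPKM in the HSC cultures and 10.8 in MEF. The SSC lines had 0.756, 5.80, 1.76 and 4.56 FPKM, and the pluripotent lines 0.110 to 0.854 with a median of 0.543. Here MEF was below both cultures and above all other samples. The log2 difference was 4.14 ± 0.40 from the pluripotent lines (adjusted p = 7.21e-06), 2.83 ± 0.44 from the SSC lines (adjusted p = 0.000357) and 1.14 ± 0.62 from MEF (adjusted p = 0.331). The single MEF sample is assumed in the fit to vary like the other cell types, and its macrophage marker RNA (3900 FPKM, with Spi1, the myeloid factor PU.1, at 46.1 FPKM) was not tested for a part in its Runx1 and Lmo2 levels. Lmo2 was also lower in the MASC than in the SSC lines, by a log2 difference of -1.19 ± 0.33 (adjusted p = 0.0154), again under the size required.

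**Figure D3:**
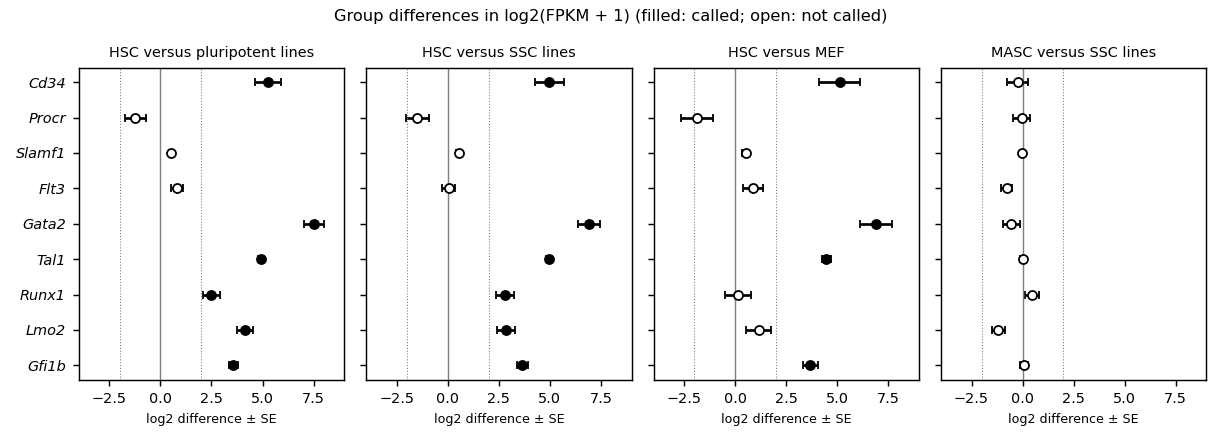
Differences in mean log2(FPKM + 1) of the 9 genes (first minus second group, ± SE from limma) in 4 comparisons; filled points were called and open points were not, and dotted lines mark the log2 difference of 2 that a call required. The 6 filled points against the pluripotent and SSC lines are Cd34, Gata2, Tal1, Runx1, Lmo2 and Gfi1b, and Runx1 and Lmo2 are open against MEF.

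SSC 3 is the other C57Bl/6J sample, which allows a look within that strain, with no test. It had 3.57 FPKM of Cd34, 2.33 of Gata2, 0.132 of Tal1, 1.87 of Runx1 and 1.76 of Lmo2, and Gfi1b and Slamf1 were listed at or near 0. The 6 called members were higher in both HSC cultures than in SSC 3, by log2 differences of the mean of 1.92 (Runx1) to 7.02 (Gata2), and Procr was lower by -1.85. Between the MASC lines and the SSC lines from which such lines arise, no member was called in either direction (limma; 1.76% of all transcripts were called higher and 2.14% lower in MASC). At an unadjusted p under 0.05 there were 2 of the 9 members, Lmo2 and Flt3, both higher in SSC lines, and 13130 of all 32661 transcripts, a larger share, and the exact two-sided permutation test gave p = 0.0190 for Lmo2 and p = 0.00952 for Flt3. The value for Flt3 is the lowest that 6 against 4 samples can give. The paper says that the MASC lines were subcloned, and they share strains in pairs. Both tests take them as independent, which they may not be.

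The 2 HSC cultures were then set against each other, which has no replicate check. At a log2 difference of at least 1 on the log2(FPKM + 1) scale, 3 members were higher in HSC 2 (Procr 2.17, Gfi1b 1.36, Flt3 1.10) and 1 was higher in HSC 1 (Cd34, -1.12). Of all transcripts, 8.21% were higher in HSC 2 and 2.83% in HSC 1 at that size. Gata2, Tal1, Runx1, Lmo2 and Slamf1 differed by less, from -0.48 (Runx1) to 0.67 (Slamf1). The bounds deposited with the FPKM did not overlap between the cultures for any of the 9 genes, and those bounds cover the counting and assignment of reads in 1 library only. In plain ratios of FPKM, Flt3 was 6.28 times, Slamf1 5.57 times and Gfi1b 2.78 times as high in HSC 2, and Cd34 2.18 times as high in HSC 1. Procr, Slamf1 and Flt3 started from less than 0.3 FPKM in HSC 1. After quantile normalization, the differences of Cd34 (-0.87) and Flt3 (0.59) fell under 1 and Gata2 changed sign from -0.40 to 0.13. In the same direction as Procr went the summed megakaryocyte markers (436 to 782 FPKM) and fibroblast markers (2.52 to 357 FPKM). Within the megakaryocyte list, Itga2b went the other way (338 to 232 FPKM). In the direction of Cd34 went the mast cell (63692 to 39324 FPKM), neutrophil and granule (2957 to 2278 FPKM) and haematopoietic markers (2366 to 1459.7 FPKM). The part of these markers in the differences was not tested.

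**Figure D4:**
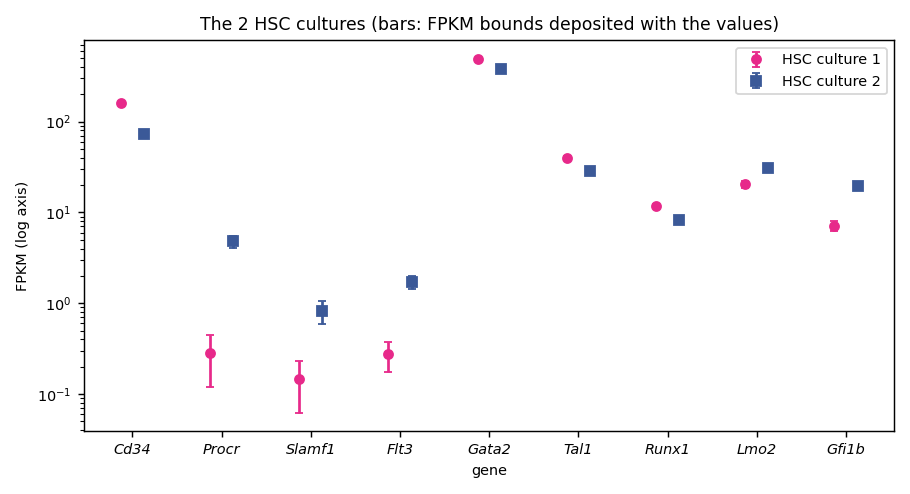
FPKM of the 9 genes in the 2 HSC cultures on a log axis, with the confidence bounds deposited beside each value as bars. Procr (0.282 and 4.79 FPKM), Flt3 and Slamf1 are the lowest genes and the ones with the widest ratios, all higher in HSC 2, and Cd34 is higher in HSC 1 (159 and 72.8 FPKM).

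The starts shown above were used in different shares. The 2 distal Runx1 transcripts held 41.4% of the gene's summed FPKM in HSC 1, 58.3% in HSC 2 and 13.6% in MEF, and the proximal start held 58.6%, 41.7% and 86.4%. In the pluripotent lines the distal start reached at most 0.146 FPKM, and the proximal start 2.79. The SSC lines had at most 0.295 FPKM from the distal start, in SSC 1. There it held 47.0% of a sum of 0.629 FPKM, and in SSC 4 21.0% of 0.920 FPKM, so large distal shares were not particular to the HSC cultures. The summed Runx1 level was alike in both cultures, at 26.3 and 23.7 FPKM, and was 13.6 in MEF. For Tal1, the upstream start held 67.0% in HSC 1, 46.4% in HSC 2 and 98.2% in MEF, and the sum was 59.1 and 62.3 FPKM in the cultures, so the difference between the cultures changed sign when transcripts were summed (-0.44 for the chosen transcript, 0.08 for the sum). At low sums the Tal1 shares varied widely: the downstream start held 99.97% of 0.458 FPKM in MASC 2 and 99.93% of 0.269 FPKM in MASC 5. For Lmo2, the downstream start (chr2:103810444) held 70.2% in HSC 1, 55.9% in HSC 2 and 93.6% in MEF, the middle start 28.5%, 41.0% and 6.37%, and the farthest upstream start 1.34%, 3.10% and near 0. With its transcripts summed, Lmo2 had 34.8 FPKM in HSC 1 and 88.6 in HSC 2, a log2 difference of 1.32 in place of 0.55. Shares of transcripts that overlap in most exons rest on the assignment of reads by Cufflinks and have no error over replicates.

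**Figure D5:**
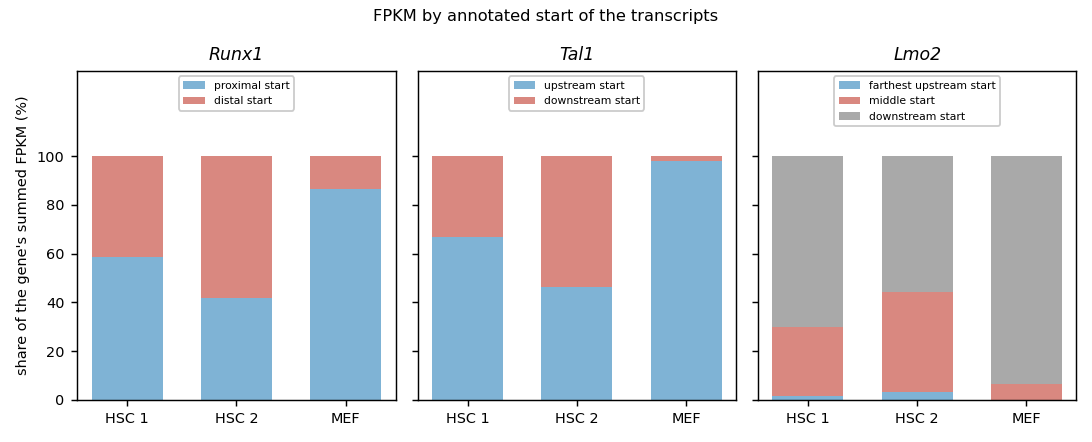
Share of each gene's summed FPKM (%) by annotated transcript start in HSC 1, HSC 2 and MEF, stacked to 100%. The distal Runx1 start holds 41.4% and 58.3% in the HSC cultures and 13.6% in MEF, and the upstream Tal1 start 67.0%, 46.4% and 98.2%.

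Around the members, 20 further blood transcription factors were measured, of which 12 were called higher in the HSC cultures than in the pluripotent lines and none lower (median log2 difference 3.44). The largest differences were those of Lyl1, the close relative of Tal1 (109 and 70.1 FPKM, log2 difference 6.26), Spi1 (139.8 and 130.1 FPKM, 6.19), Nfe2, a globin and platelet gene activator (35.8 and 79.7 FPKM, 5.48), and Gata1 (64.2 and 37.6 FPKM, 5.06). Erg and Hhex were called higher than in the pluripotent lines but not than in the SSC lines, which had up to 50.3 and 73.5 FPKM.

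Of 11 partners and cofactors of the member factors, none was called higher and 1 lower than in the pluripotent lines (median log2 difference -0.49), where 4.44% and 3.81% of all transcripts were called, so these counts are near the background. The lower gene was Ssbp3, which stabilises the LIM cofactor LDB1 (1.72 and 1.92 FPKM, against 14.1 to 36.6 in the pluripotent and 45.3 to 80.8 in the SSC lines, log2 difference -3.16). Ldb1 itself had 100.5 and 115 FPKM (log2 difference 0.71, adjusted p = 0.0024) and Cbfb, the partner of RUNX1, 17.4 and 22.2. Kdm1a (LSD1), through which GFI1B represses, had 29.4 and 31.6 FPKM against 63.2 to 97.0, a log2 difference of -1.28. Hdac1 was lower by -1.63 and Cbfa2t2 by -1.50, and Rcor1 (CoREST) was higher by 1.12 (16.3 and 23.5 FPKM, adjusted p = 0.00185), all under the size of a call (Rcor1 was chosen after its values were seen).

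For the surface proteins and ligands too, the shares of all transcripts called against the pluripotent lines were 4.44% higher and 3.81% lower. Of 20 other surface proteins of blood stem and progenitor cells, 11 were called higher than in the pluripotent lines and none lower (median 2.81). They were led by Csf2rb, the common chain of the IL-3 and GM-CSF receptors (527 and 124 FPKM, log2 difference 7.63), Itga2b, integrin αIIb of megakaryocytes and mast cells (338 and 232 FPKM, 7.32), Ly6a, which encodes Sca-1 (629.9 and 300.4 FPKM, 5.89), and Kit, the receptor of the ligand in the medium (401 and 286 FPKM, 5.84). Cd48, which is absent from the most primitive blood stem cells, had 41.9 and 61.8 FPKM (Cd48 was chosen after its values were seen). Of 10 ligands, 2 were called higher: Flt3l, the ligand of FLT3 (31.5 and 32.6 FPKM, log2 difference 4.52), and Angpt1, the ligand of TIE2 (12.5 and 10.5 FPKM, 3.44). Csf1 (log2 difference 1.98) and Thpo (-0.91) came next and were not called. Proc, which encodes the protein C that the Procr product binds, was listed at 0 in both HSC cultures.

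Of 20 paralogs of the members, 5 were called higher and 1 lower (median 0.59), where 4.44% and 3.81% of all transcripts were called. The lower count is thus near the background, and Lyl1 and Gfi1 were already counted among the blood transcription factors. Lyl1, Runx3 (46.9 and 47.4 FPKM, log2 difference 5.32) and Gfi1 (35.4 and 15.9 FPKM, 4.57) were higher, and Podxl, a sialomucin of the Cd34 family, was lower (0.161 and 0.718 FPKM against 5.57 to 28.7, log2 difference -3.36). Runx3 thus had more FPKM than Runx1 in both HSC cultures on the chosen transcripts. Cd34 and Podxl differed in opposite directions.

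The genes whose pattern over the 17 samples was most like that of a member were found by the root mean square difference of centred log2(FPKM + 1). For Gata2 they were Itga2b (0.45), Scin (0.55) and Ms4a2 (0.60), the last of which encodes the β chain of the mast cell IgE receptor. For Gfi1b they were Spns3 (0.11), Ms4a2 (0.17) and F2rl2 (0.18), for Tal1 Slc41a3 (0.13), Kcne3 (0.18) and Rab27b (0.19), and for Cd34 Prkacb (0.59), Ly6c2 (0.60) and Cadm3 (0.71). Runx1 was nearest to Ttc28 (0.36), Lmo2 to Cdkn2c (0.42), Procr to Neo1 (0.41), which was also low in HSC 1 (0.910 FPKM), and Flt3 to Tbc1d4 (0.17). For Slamf1, whose range was small, the nearest was Ube2q1 (0.15), at 27.7 to 44.1 FPKM in all samples. These distances are descriptions over samples that share their libraries.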

How the data were processed

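RNA-seq libraries (TruSeq, total RNA) of 17 samples were analysed. The authors deposited 1 Cufflinks table per sample with an FPKM per RefSeq transcript, made with TopHat2 2.0.11 on mm9 after leaving out duplicate and multi-mapping reads, with upper-quartile and GC normalization; the Cufflinks version is not given in the sources used here. Beside it the authors deposited coverage (reads per base, a signal); the tables used here hold no counts, so depth is unknown beyond this. Upper-quartile scaling and the split of reads among transcripts can both shift a value.

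Of 33262 rows, the 32661 with a plain RefSeq identifier were kept, without a filter. Groups were taken from the labels. limma 3.58.1 (R 4.3.3) was fitted to log2(FPKM + 1) over 17 samples and 6 cell types, with Benjamini-Hochberg adjustment, and was tested on simulated data. Fold changes on this scale understate changes of low genes. The members, gene lists and tests were chosen with earlier results of these data known. Named genes were the members, for each list the 4 genes with the largest difference between HSC cultures and pluripotent lines (for marker lists the highest in HSC), and for each member up to 3 nearest genes. Named beyond this rule were Erg, Hhex, Ldb1, Cbfb, Proc, Rcor1 and Cd48, and all genes of the haematopoietic and macrophage lists. Of the marker lists not described in the report, erythroid markers summed to 18.5 and 27.1 FPKM in the HSC cultures, B cell markers to 1.75 and 5.54, T cell markers to 0.651 and 2.26, pluripotent markers to 4.63 and 1.44, and spermatogonial markers to 1.48 and 5.13. Alternatives were another pseudocount, a filter, quantile normalization, other thresholds, other fits, summed transcripts and leaving out each sample. Replicate numbers were checked for pairing. Over 22 same-numbered pairs of samples, deviations from the group means correlated by -0.36 to 0.41, and over 74 pairs with different numbers by -0.41 to 0.40. In groups of 2 samples the deviations mirror each other, so this check cannot exclude a pairing by number. No files held identical values (highest r between samples 0.984, MASC 3 with MASC 4).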

Additional observations from a re-analysis of the deposited data

Results flagged for a closer look

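Dixon's test for a sample far from the others was run on log2(FPKM + 1) of each member in the 6 MASC and the 4 SSC lines, 18 groups in all, and about 1 in 20 groups is expected past its 95% limit by chance. It marked 3 values. Cd34 had 10.0 FPKM in MASC 1, against 0.652 to 2.17 in the other MASC lines. Gfi1b, on the chosen transcript, had 0.119 FPKM in SSC 1 and was at or near 0 in the other SSC lines. Summed over its transcripts, Gfi1b had 0.119, 0.0873, 0 and 0.102 FPKM in SSC 1 to 4, so SSC 1 did not stand apart for the gene. Slamf1 had 0.000555 FPKM in MASC 3 and was listed at 0 in the other 5 MASC lines. The Gfi1b and Slamf1 values lie under 1 FPKM.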

How the results depend on the processing

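Of the 6 members called against the pluripotent lines, each kept its call under all 27 alternatives. Some of these could not remove a call: an unadjusted p, a smaller log2 difference, and leaving out MEF, which gave the same 2697 transcripts. The exact permutation test gave its lowest possible p (0.0303) to all 6, and also to the uncalled Slamf1 and Flt3. Of the 6 called against the SSC lines 1 call was lost, that of Lmo2 with only the cell types compared (adjusted p = 0.0513). Against MEF, all 4 calls were lost in that setting, which leaves 1 residual degree of freedom (0 members and 0 transcripts called; 913 transcripts, 2 of them members, at an unadjusted p under 0.05 and the required size). With a pseudocount of 0.1, the transcripts called rose from 2697 to 5511 against the pluripotent lines, from 3005 to 5897 against SSC lines and from 1274 to 3277 for MASC against SSC lines, where 1 member (Flt3, lower in MASC) was then called. At a log2 difference of at least 1 they were 7005, 7482, 3198 (MEF, from 1656) and 5188, and 1 member (Lmo2) was called for MASC against SSC lines. Between the HSC cultures, 4 members passed a log2 difference of 1, 5 with a pseudocount of 0.1 or with summed transcripts, 2 after quantile normalization and 1 at a size of 2. With each sample left out in turn, 6 to 7 members were called against the pluripotent and SSC lines, 4 to 5 against MEF and 0 for MASC against SSC lines. Over the transcripts at 1 FPKM in 2 samples, quantile normalization moved the median difference from -0.31 to -0.13 against the SSC lines and from -0.12 to 0.00 for MASC against SSC lines.

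With the replicate block, 6, 6 and 0 members were called against the pluripotent lines, against the SSC lines and for MASC against SSC lines (2452, 2761 and 1214 transcripts). Whether the numbers pair the samples is not known. No uncalled difference that turned its sign was called after it: Flt3 against SSC lines was -0.059 with the replicate block and -0.51 to 0.58 with each sample left out, below 0 without HSC 2, SSC 1 or SSC 3. Runx1 against MEF was -0.12 to 0.36 with each sample left out, below 0 without HSC 1. For MASC against SSC lines, Procr was 0.21 after quantile normalization, 0.17 with the replicate block and -0.24 to 0.084 with each sample left out, above 0 without SSC 3 or MASC 6, and Tal1 was -0.045 to 0.090 with each sample left out, below 0 without MASC 3, 4 or 6 or SSC 1 or 4. The cause was not tested. Exact permutation of 2 against 4 samples cannot go below p = 0.133 and was not run.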
